A study of Mus musculus with 4 samples.

Results

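Macroautophagy is the route by which a cell encloses part of its cytoplasm in a double membrane, the autophagosome, and delivers it to lysosomes for breakdown. The ULK1 kinase complex starts the process, a lipid kinase complex built on VPS34 and Beclin 1 marks the forming membrane with phosphatidylinositol 3-phosphate (PI3P), lipid carriers extend it, and ubiquitin-like conjugation enzymes attach ATG8 proteins (LC3 and GABARAP) to it. Cargo receptors such as p62 tie ubiquitinated cargo to ATG8. In macrophages, parts of the same machinery also serve phagocytosis and the clearance of microbes.

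The account covers 39 genes of this machinery, defined by a list of gene names: 5 of the initiation complex, 6 of the lipid kinase complex, 6 for membrane supply and PI3P binding, 7 conjugation enzymes or conjugates, 4 ATG4 proteases, 5 ATG8 genes, 5 cargo receptors and the SNARE gene Stx17. Every one was found once in both deposited tables, which share 22554 uniquely named genes. With a filter of at least 1 FPKM (read fragments relative to gene length and library size) in at least 2 of the 4 libraries, 38 of the 39 were among the 10202 genes tested. The exception was Optn, the gene of the ubiquitin-binding cargo receptor optineurin, which was listed at 0 FPKM in all 4 libraries.

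The libraries came from RAW264.7, a transformed mouse macrophage line. The coculture group held 2 libraries of RAW264.7 cells grown together with CT26, a mouse colon carcinoma line, and the mock group 2 libraries of RAW264.7 cells without tumour cells. Libraries with the same replicate number formed a pair, and each pair was deposited in a table of its own. The sources used here do not give the length of coculture, the shared medium or the way the macrophages were recovered. They also do not say whether replicates were separate cultures, so the p-values speak for the spread among these 4 libraries, which may be technical. Depth, estimated from the steps between low values, was 12240000 to 16140000 reads per library. Of 12 macrophage markers, 11 stood at 1 FPKM or more in every library, the exception being Mertk. None of 13 epithelial and mesenchymal markers, used here for CT26 cells, reached 1 FPKM in any library. Their summed level was 0.716 and 0.087 FPKM in coculture 1 and 2, against 0.820 and 0.139 FPKM in mock 1 and 2, and Epcam, Krt18, Col3a1 and Cldn4 were at 0 in all 4. No library of CT26 cells alone was among the 4, so whether CT26 cells express these markers was not tested.

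No autophagy gene passed the test in either direction. Each difference given is that of log2(FPKM + 1) in coculture less that in mock, and the test was limma with the pair as a block and a call at a Benjamini-Hochberg adjusted p under 0.05. Over all genes tested, 13 were called higher, or 0.127%, and 0 were called lower, or 0%. At an unadjusted p under 0.05, limma had 3 of the 38 autophagy genes higher (Vmp1, Sqstm1 and Gabarapl1), against a background of 5.26% of all genes, and 1 lower (Pik3c3), against 9.45%. The members that stood furthest apart in both pairs were Vmp1, Sqstm1 and Gabarapl1 on the higher side and Pik3c3 and Ulk1 on the lower side. In bulk RNA, a smaller share of cells with a transcript and less of it per cell cannot be told apart.

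Vmp1 and Sqstm1 had the largest mean differences of the 38, so the stretch around their annotated starts is shown. Both windows are RefSeq sequence of build GRCm38.p6, minus strand, from 250 bases before to 50 bases after the start, with Vmp1 at chr11:86683787-86684086 and Sqstm1 at chr11:50210771-50211070. Capitals mark matches on either strand to the core letters searched.
Vmp1: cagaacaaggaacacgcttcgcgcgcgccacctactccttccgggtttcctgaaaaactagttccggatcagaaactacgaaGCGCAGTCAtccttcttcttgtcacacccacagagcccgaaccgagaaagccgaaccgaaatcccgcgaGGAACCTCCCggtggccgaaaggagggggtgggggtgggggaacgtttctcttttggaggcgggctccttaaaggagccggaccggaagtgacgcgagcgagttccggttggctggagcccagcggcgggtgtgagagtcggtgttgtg
Sqstm1: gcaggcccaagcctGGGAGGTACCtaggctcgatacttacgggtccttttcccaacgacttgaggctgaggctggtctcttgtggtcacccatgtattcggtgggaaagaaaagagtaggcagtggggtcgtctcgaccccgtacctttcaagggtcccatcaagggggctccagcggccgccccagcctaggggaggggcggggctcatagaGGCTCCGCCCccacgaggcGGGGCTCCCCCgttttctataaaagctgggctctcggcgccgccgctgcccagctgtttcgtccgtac

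The cores searched were the antioxidant response core TGACNNNGC, the E-box core CACGTG, the AP-1 core TGANTCA and an NF-kappaB core (GGG, 5 bases of any kind, then CC). RefSeq windows were found for 33 of the 39 genes, 39 windows in all. The first capitals of Vmp1 match the antioxidant response core on the reverse strand, as did the other 2 annotated Vmp1 starts. That core was in 7 of the 39 windows, belonging to Atg13, Map1lc3b, Tax1bp1, Ulk2 and Vmp1, and in 12.4% of all 32851 windows of this length. Every capital run of Sqstm1, and the second run of Vmp1, matches the NF-kappaB core, which was in 22 of the 39 windows and in 50.8% of all windows. In the third run of Sqstm1, matches on both strands overlap. The E-box core, which TFEB and related factors can bind, was in the windows of Atg3, Atg5, Atg7 and Atg14 and in 7.15% of all windows, and the AP-1 core was in none of the 39 against 7.81%. A match describes these letters only.

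Vmp1 encodes an endoplasmic reticulum scramblase that autophagosome formation requires. It stood at 51.8 and 67.6 FPKM in coculture 1 and 2, against 30.4 and 29.9 FPKM in mock 1 and 2. Both coculture libraries lay above both mock libraries, and the mock libraries were nearly equal. Here and below, statements on overlap of the groups compare values across the 2 tables. An offset between the tables enters them, unlike the within-pair differences. The difference was 0.95 ± 0.15 (limma's moderated SE, n = 2 pairs), or 0.75 in pair 1 and 1.15 in pair 2, with a limma adjusted p of 0.130. On the FPKM scale the ratio was 1.71 in pair 1 and 2.26 in pair 2. Vmp1 was the 1 autophagy gene at least 1.5-fold higher in both pairs, against 2.40% of all genes tested, and 0 were 1.5-fold lower in both, against 2.17%. The Vmp1 difference ranged from 0.76 to 1.14 over the 13 alternative settings, with limma adjusted p from 0.0557 to 1.

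Vmp1 overlaps another annotated transcript. In the GENCODE M21 annotation, the precursor of microRNA miR-21a lies on the same strand within a Vmp1 exon, with 92 shared bases, or 2.38% of the Vmp1 exon bases. The mature 5′ arm (RefSeq, GRCm38.p6, chr11:86584120-86584141, minus strand) is shown with its seed, bases 2 to 8, in capitals.
miR-21a-5p: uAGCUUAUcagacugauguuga
The row of the precursor gene, Mir21a, stood at 0 and 2.67 FPKM in coculture 1 and 2, against 0 and 0.689 FPKM in mock 1 and 2. The kit reads messenger RNA and not mature microRNA, so these values say nothing of the mature form. How far reads of the primary miR-21a transcript entered the Vmp1 value was not tested.

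**Figure D1:**
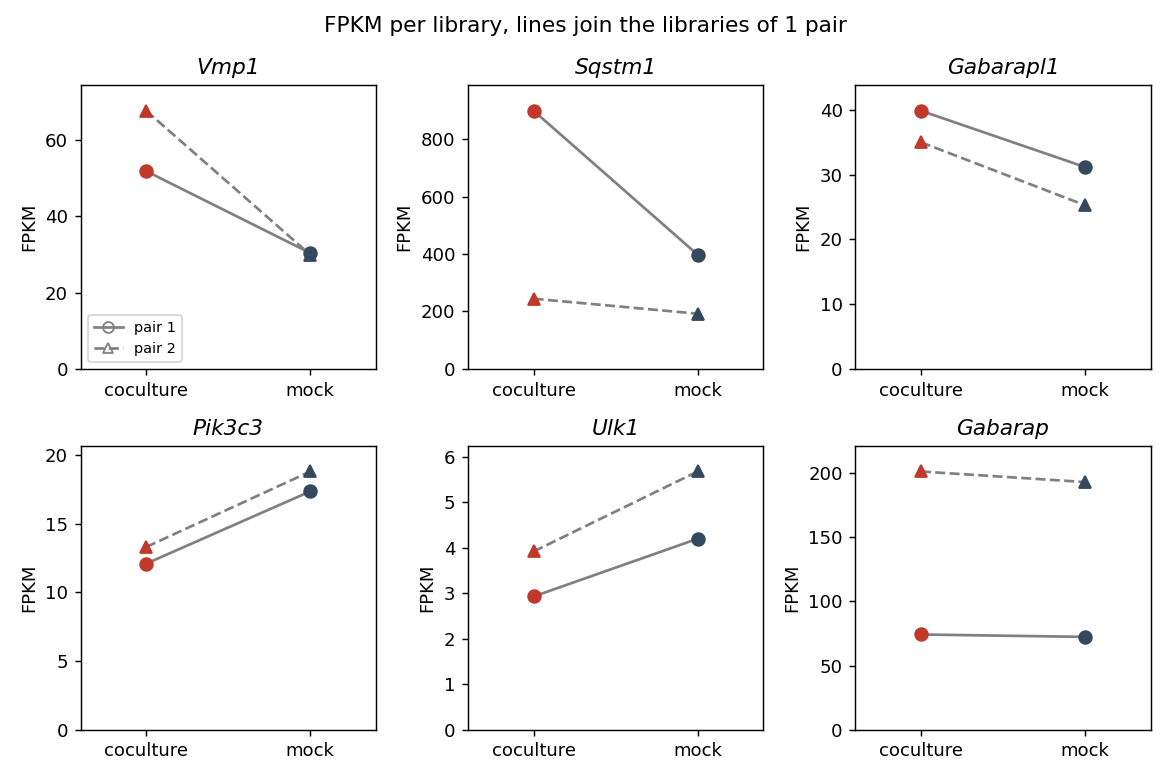
FPKM (vertical axes, from 0) of 6 autophagy genes in the 2 coculture and 2 mock libraries, with lines joining the libraries of a pair (circles pair 1, triangles pair 2). Vmp1 and Gabarapl1 lie higher and Pik3c3 and Ulk1 lower in both coculture libraries than in both mock libraries, Sqstm1 overlaps between groups, and Gabarap differs more between pairs than within them.

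Among cargo receptors, Sqstm1 differed most. It encodes p62, which binds ubiquitinated cargo and ATG8 proteins and also holds KEAP1, the inhibitor of NRF2. Sqstm1 stood at 899 and 245 FPKM in coculture 1 and 2, against 398 and 192 FPKM in mock 1 and 2. Each coculture library was above its own mock, but coculture 2 lay below mock 1, so the groups overlapped. That overlap crosses the 2 tables, and mock 2 was at 0.483 of mock 1. The difference was 0.76 ± 0.23 (limma's moderated SE, n = 2 pairs), or 1.17 in pair 1 and 0.34 in pair 2, with a limma adjusted p of 0.287. With 1 library left out, in a fit without the pairs that sets the 2 tables against each other, the Sqstm1 difference ran from -0.18 without coculture 1 to 1.70 without coculture 2, with 0.24 without mock 2 and 1.28 without mock 1. Sqstm1 ranked 29 in coculture 1 and 175 in coculture 2 by FPKM among all genes, against 93 in mock 1 and 261 in mock 2. In GENCODE M21, 17.3% of the Sqstm1 exon bases are shared with Mrnip on the opposite strand, and Mrnip did not exceed 5.62 FPKM.

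The other receptors showed no shared direction. Tax1bp1, which binds ubiquitinated cargo, stood at 48.6 and 47.2 FPKM in coculture and 42.8 and 49.4 FPKM in mock. Nbr1, a receptor related to p62, was lower in pair 1 (-0.49) and higher in pair 2 (0.28). Calcoco1, a receptor for endoplasmic reticulum and Golgi cargo, was lower in both pairs (-0.06 and -0.30), though not after median centring or quantile normalization. Sqstm1 made up 93.5% and 76.2% of the summed FPKM of the 5 receptors in coculture 1 and 2, against 86.7% and 71.8% in mock 1 and 2.

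In the ATG8 family, the 3 GABARAP genes were higher in both pairs, against 21.5% of all genes tested, or Gabarapl1 and Gabarapl2 alone after rescaling to a common total or quantile normalization. Of the 2 LC3 genes, Map1lc3b was higher in pair 1 and lower in pair 2 (0.07 and -0.44), and Map1lc3a the reverse (-0.05 and 0.29), or higher in both after median centring or quantile normalization. Gabarapl1 stood at 39.9 and 35.0 FPKM in coculture 1 and 2, against 31.2 and 25.3 FPKM in mock 1 and 2, with no overlap between groups. Its difference was 0.40 ± 0.12 (limma's moderated SE, n = 2 pairs), or 0.34 and 0.45 in the pairs, with a limma adjusted p of 0.277. Without mock 2, in a fit without the pairs, the Gabarapl1 difference was 0.25. Of the Gabarapl1 exon bases, 28.3% are shared with the transcript 1700101I11Rik on the opposite strand, and the strand setting of the counting is not known. Gabarapl2 was also without overlap, at 18.9 and 20.4 FPKM in coculture and 17.5 and 15.3 FPKM in mock, with differences of 0.10 (pair 1) and 0.40 (pair 2).

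Gabarap itself was the most abundant ATG8 transcript, at 74.2 and 201 FPKM in coculture and 72.3 and 193 FPKM in mock. Its values lay at 2 levels by table and not by group: mock 2 was 2.67 times mock 1, the largest such ratio of the 38 genes, while the within-pair differences were 0.04 and 0.06. The mean Gabarap difference of 0.05 became -0.0066 when libraries were rescaled to a common total. Gabarap made up 49.0% and 72.8% of the summed ATG8 FPKM in coculture 1 and 2, against 52.1% and 75.4% in mock 1 and 2. Map1lc3b, the LC3B gene whose product is the common autophagosome marker, stood at 14.3 and 11.4 FPKM in coculture and 13.5 and 15.8 FPKM in mock. Map1lc3a was less abundant, at 4.21 and 8.21 FPKM in coculture and 4.39 and 6.55 FPKM in mock.

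**Figure D2:**
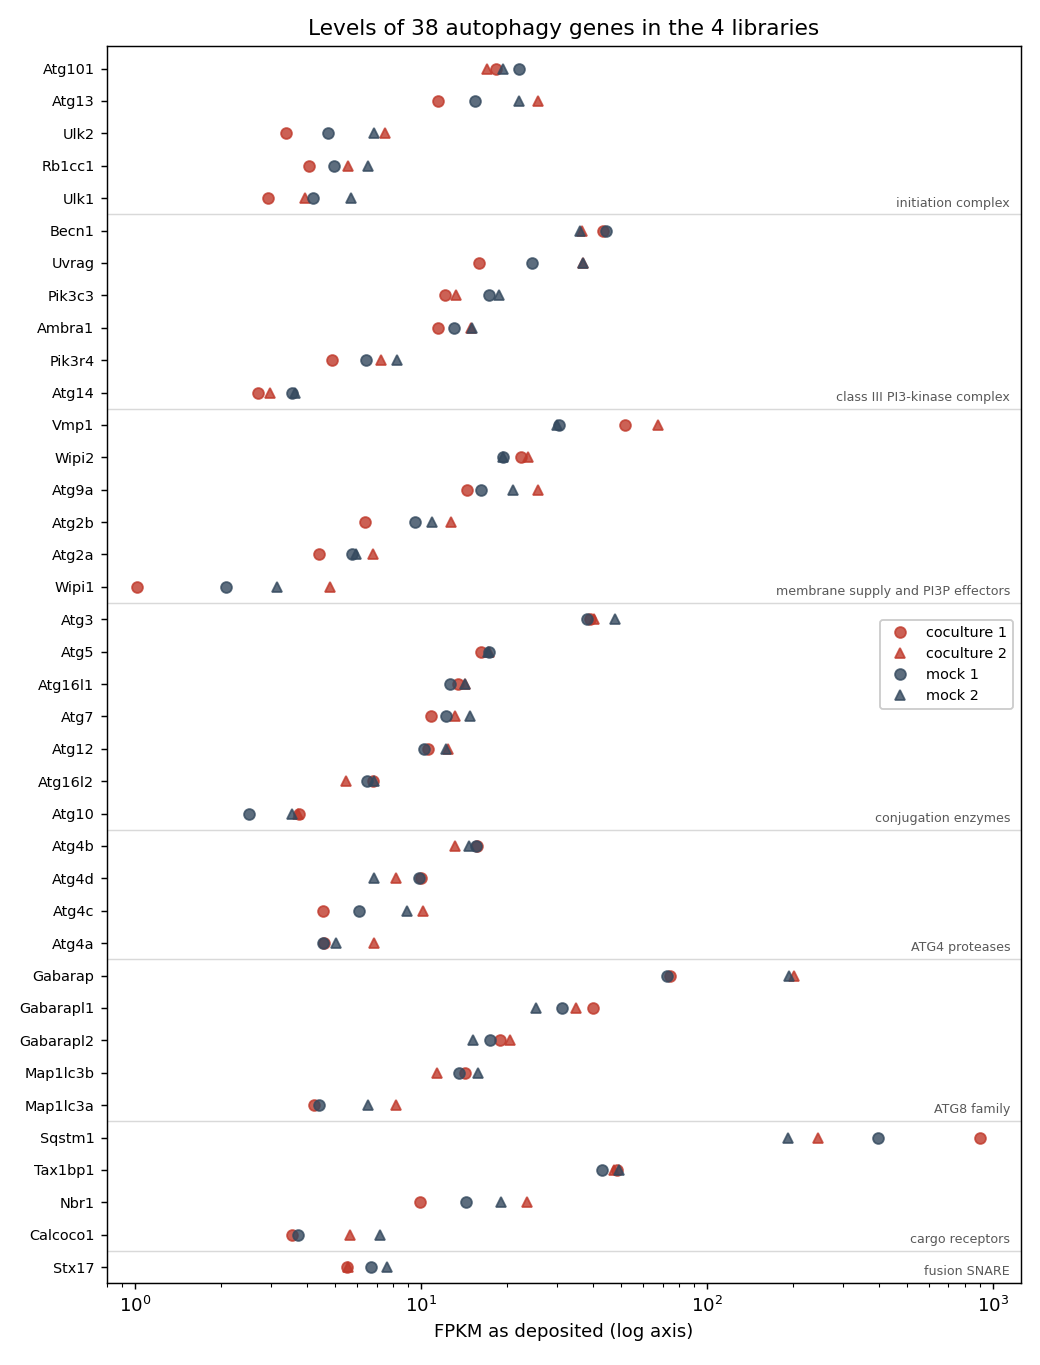
FPKM (log axis) of the 38 autophagy genes at or above the filter, grouped by role, in coculture 1 and 2 (red) and mock 1 and 2 (blue), with circles for pair 1 and triangles for pair 2. Levels run from 1.02 FPKM for Wipi1 to 899 FPKM for Sqstm1, both in coculture 1.

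Of the 5 initiation genes, 3 were lower in both pairs, against 42.2% of all genes tested, and the other 2 were lower in pair 1 and higher in pair 2, against 20.1%. The differences of all 5 were negative in pair 1 under the deposited scale and the 3 other scalings tried, from -0.40 to -0.24 as deposited, and in pair 2 they ran from -0.44 to 0.20. Ulk1, the kinase that starts autophagy and that mTORC1 and AMPK phosphorylate, stood at 2.93 and 3.92 FPKM in coculture 1 and 2, against 4.20 and 5.68 FPKM in mock 1 and 2. Both coculture libraries were below both mock libraries. The Ulk1 difference was -0.42 ± 0.17 (limma's moderated SE, n = 2 pairs), or -0.40 and -0.44 in the pairs, with a limma adjusted p of 0.359. With 1 library left out, in fits without the pairs, the Ulk1 difference was -0.24 without mock 2 and -0.26 without coculture 1. On the FPKM scale Ulk1 was at 0.698 and 0.690 of its mock in the pairs. Ulk2, the related kinase, was lower in pair 1 (-0.39) and higher in pair 2 (0.11), and Atg13, the adaptor of the complex, did likewise (-0.40 and 0.20). Rb1cc1, which encodes the scaffold FIP200, was lower in both pairs (-0.24 and -0.20). Atg101, the ATG13 partner, stood at 18.3 and 17.1 FPKM in coculture and 22.0 and 19.3 FPKM in mock. It was the most abundant of the 5 in pair 1, and Atg13 was in pair 2, at 25.6 FPKM in coculture 2 and 22.1 FPKM in mock 2.

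In the lipid kinase complex, 5 of the 6 genes were lower in both pairs, against 42.2% of all genes tested, or 3 (Pik3c3, Pik3r4 and Atg14) after median centring or quantile normalization and all 6 after rescaling to a common total. Becn1 had the difference nearest to 0. Pik3c3 encodes VPS34, the kinase that makes PI3P. It stood at 12.1 and 13.3 FPKM in coculture 1 and 2, against 17.4 and 18.8 FPKM in mock 1 and 2. Both coculture libraries were below both mock libraries, and the pairs were close to each other. The difference was -0.48 ± 0.13 (limma's moderated SE, n = 2 pairs), or -0.49 and -0.47 in the pairs, with a limma adjusted p of 0.254. It was at 0.697 and 0.708 of its mock on the FPKM scale.

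Atg14, which directs the kinase to autophagosome formation, stood at 2.70 and 2.96 FPKM in coculture and 3.53 and 3.64 FPKM in mock, also without overlap. Pik3r4, the VPS15 subunit, differed by -0.34 and -0.16 in the pairs. Uvrag, the subunit of the endosomal form of the complex, was lower by value in pair 1 (-0.58) and near 0 in pair 2 (-0.0070), and Ambra1, a Beclin 1 partner, gave -0.17 and -0.0071. Of the Uvrag exon bases, 17.6% are shared with the transcript Gm45187 on the opposite strand. Becn1, the Beclin 1 gene, stood at 43.5 and 36.7 FPKM in coculture and 44.2 and 35.9 FPKM in mock. Its difference was 0.0036, with a 95% interval from limma of -0.30 to 0.31, with -0.050 once the libraries were rescaled to a common total. In GENCODE M21, 43.9% of the Becn1 exon bases are shared with Cntd1 on the opposite strand, and Cntd1 did not exceed 0.398 FPKM.

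Apart from Vmp1, genes of membrane supply and PI3P binding mostly went opposite ways in the pairs. The lipid transfer genes Atg2a (-0.32 and 0.17) and Atg2b (-0.52 and 0.20), the scramblase gene Atg9a (-0.15 and 0.27) and the PI3P-binding gene Wipi1 (-0.61 and 0.49) were lower in pair 1 and higher in pair 2. In GENCODE M21, 31.8% of the Atg9a exon bases are shared with the transcript Gm29253 on the same strand. Wipi1 was the least abundant of the 38 genes in coculture 1, at 1.02 FPKM. That is an estimated 54.8 reads if its longest GENCODE M21 transcript gave the gene length. Wipi2, whose product recruits ATG16L1 to PI3P, was higher in both pairs (0.20 and 0.27), at 22.4 and 23.6 FPKM in coculture and 19.3 and 19.4 FPKM in mock.

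Mean differences of the 7 conjugation genes ran from -0.17 to 0.24, with a median of -0.04. Atg3, the enzyme that transfers ATG8 to lipid and the most abundant of the 7, stood at 38.9 and 40.4 FPKM in coculture and 38.2 and 47.7 FPKM in mock. Its difference was -0.10, with a 95% interval from limma of -0.44 to 0.24. Atg5 (-0.09 and 0.0096 in the pairs), Atg12 (0.04 and 0.02) and Atg16l1 (0.09 and -0.0021), whose products form the complex that completes ATG8 attachment, stayed within 0.10 in either pair. Atg7, the activating enzyme for both conjugation routes, was lower in both pairs (-0.16 and -0.17). Atg10, the enzyme that joins ATG12 to ATG5, was the least abundant, at 3.75 and 3.71 FPKM in coculture and 2.51 and 3.55 FPKM in mock. Atg16l2, a relative of Atg16l1, was higher in pair 1 (0.06) and lower in pair 2 (-0.27).

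The ATG4 proteases trim ATG8 proteins before conjugation and release them from lipid afterwards. Atg4b, the most abundant, stood at 15.7 and 13.1 FPKM in coculture and 15.5 and 14.8 FPKM in mock. Atg4a (0.01 and 0.38) and Atg4d (0.02 and 0.23) were higher in both pairs but lower in pair 1 after rescaling to a common total, and Atg4c was lower in pair 1 (-0.35) and higher in pair 2 (0.17). Atg4d shares 19.3% of its exon bases with Kri1 on the opposite strand, which stood at 28.4 and 24.6 FPKM in coculture and 30.1 and 25.6 FPKM in mock. Stx17, the SNARE gene for fusion of autophagosomes with lysosomes, stood at 5.51 and 5.56 FPKM in coculture 1 and 2, against 6.67 and 7.63 FPKM in mock 1 and 2. The Stx17 groups did not overlap, and the difference was -0.32 ± 0.16 (moderated SE, 2 pairs; limma adjusted p = 0.430).

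Set side by side, 10 of the 38 genes were higher in both pairs, against 21.5% of all genes tested, and 11 were lower in both, against 42.2%. These counts were 6 and 16 after rescaling to a common total, 14 and 8 after median centring, and 12 and 8 after quantile normalization. Another 11 were lower in pair 1 and higher in pair 2 (20.1% of all genes), and 6 were higher in pair 1 and lower in pair 2 (15.7%). With a difference of at least 0.3 in both pairs, 3 were higher (background 4.70%) and 2 lower (background 9.65%), the 5 genes described with their tests above. Coculture libraries lay above both mock libraries for 5 genes (background 10.3%) and below both for another 5 (background 21.5%). These last counts cross the 2 tables, so offsets between the tables enter them. The median difference of the 38 was -0.08, or -0.07 in pair 1 and 0.03 in pair 2, beside -0.07 for all genes, or -0.09 and -0.06 in the pairs. Across the 38 genes, which share the 4 libraries and are not independent replicates, the within-pair differences had a Pearson's r of 0.37 and a Spearman's rho of 0.19. Over all genes tested these were 0.48 and 0.37.

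**Figure D3:**
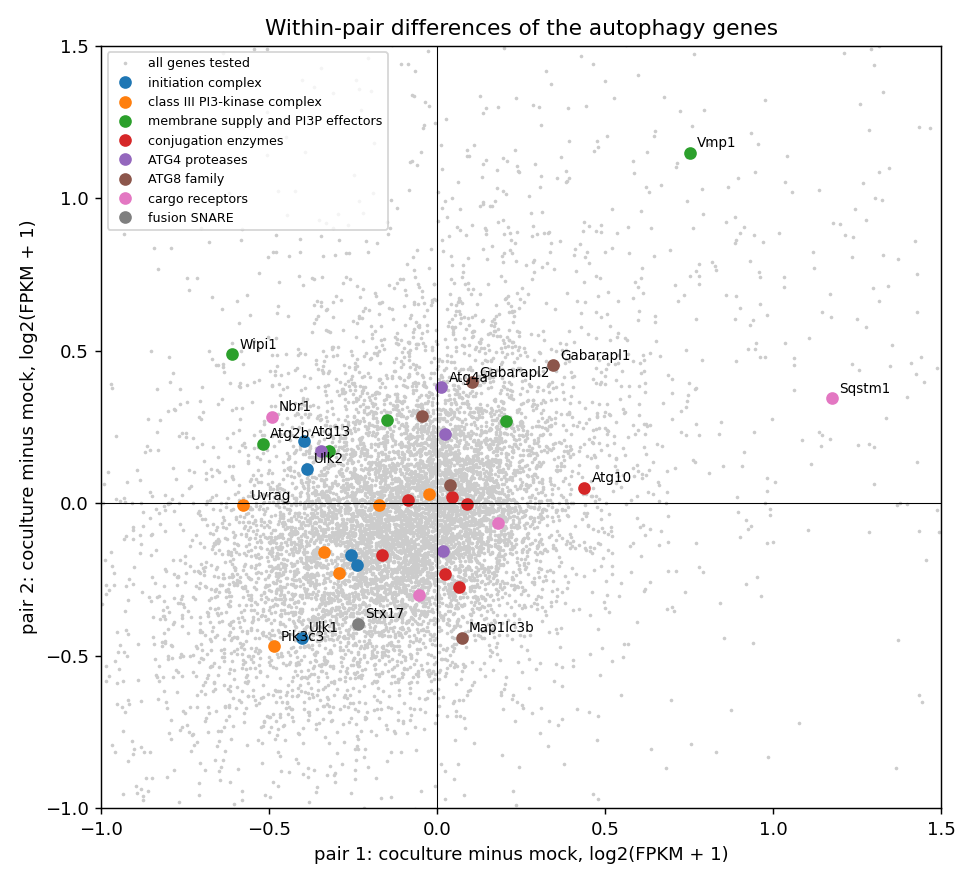
Difference in log2(FPKM + 1), coculture less mock, in pair 1 (horizontal axis) and pair 2 (vertical axis), with autophagy genes coloured by role and all tested genes in grey. The axes run from -1 to 1.5, so grey points beyond that are not drawn. Vmp1 (0.75 and 1.15) and Sqstm1 (1.17 and 0.34) lie apart from the other members at the upper right, and Pik3c3 and Ulk1 at the lower left.

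Genes around this machinery, taken from 4 lists, also held no gene past the test. The lists held 20 tested upstream regulators, 14 transcriptional regulators, 20 genes of later steps and 16 further genes of selective autophagy. The last list mixes receptors with other factors. In each list, 0 genes were called in either direction (background 0.127% higher and 0% lower). The median differences of the lists, in the same order, were -0.15, -0.21, -0.09 and -0.11, beside -0.07 for all genes tested. At an unadjusted p under 0.05, limma had 1 upstream gene higher (Bcl2l1) and 2 lower (Deptor and Rubcn). It had 1 transcriptional regulator higher (Nfkb1) and 2 lower (Tfeb and Usf1). Of the later steps, 0 genes were higher and 1 lower (Plekhm1). Of the further genes of selective autophagy, 1 was higher (Trp53inp2) and 1 lower (Bnip3l). Over all genes tested these shares were 5.26% higher and 9.45% lower. Rubcn (-0.61) and Nfkb1 (0.87) are named for this count after their values were seen. Below the filter were Prkaa2, Sesn3, Trp53inp1 and Calcoco2, the last listed at 0 in all 4 libraries.

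Among transcriptional regulators, Tfeb, which drives lysosomal and autophagy genes through E-box sequences, stood at 3.01 and 5.64 FPKM in coculture 1 and 2, against 8.68 and 14.9 FPKM in mock 1 and 2. The groups did not overlap, and the difference was -1.27 ± 0.15 (moderated SE, 2 pairs; limma adjusted p = 0.0964), with -1.27 and -1.26 in the pairs. With the libraries centred on their medians, the Tfeb difference of -1.20 passed the test (limma adjusted p = 0.0448). That setting, which called 85 genes higher and 18 lower over all genes, was the only 1 of the 13 alternatives to call Tfeb. Over the 13 alternatives the Tfeb difference ran from -1.63 to -0.90. Usf1, which binds the same kind of sequence, differed by -0.72 and -0.47 in the pairs, and Foxo1, a nutrient-regulated activator, by -0.36 and -0.38. Nfe2l2, the NRF2 gene, stood at 68.1 and 38.9 FPKM in coculture and 65.7 and 56.5 FPKM in mock. Its inhibitor gene Keap1 stood at 12.6 and 18.9 FPKM in coculture and 17.9 and 20.9 FPKM in mock.

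Among upstream genes, Mtor, the nutrient-sensing kinase that restrains ULK1, stood at 12.2 and 14.3 FPKM in coculture and 14.4 and 15.2 FPKM in mock. Bcl2l1 encodes BCL-XL, a survival protein that binds Beclin 1. It stood at 38.9 and 33.8 FPKM in coculture 1 and 2, against 16.7 and 8.59 FPKM in mock 1 and 2, a difference of 1.52 ± 0.20 (moderated SE, 2 pairs; limma adjusted p = 0.114). After median centring the Bcl2l1 difference of 1.58 passed the test (limma adjusted p = 0.0344), as under no other of the 13 alternatives. Over the 13 alternatives the Bcl2l1 difference ran from 1.075 to 1.958. Bcl2, its relative, differed by -0.42 and -0.56 in the pairs, and Deptor, an mTOR inhibitor gene, by -0.50 and -0.51.

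Of the later steps, Plekhm1, an adaptor between RAB7 and the HOPS tethering complex, stood at 6.84 and 14.4 FPKM in coculture 1 and 2, against 34.7 and 26.9 FPKM in mock 1 and 2. The pairs gave -2.19 and -0.85 (limma adjusted p = 0.210 for the mean of -1.52). Tmem41b, an endoplasmic reticulum scramblase that acts with VMP1, stood at 14.5 and 14.7 FPKM in coculture and 12.0 and 11.1 FPKM in mock, higher in both pairs (0.25 and 0.38). Rab33b, a GTPase that binds ATG16L1, differed by 0.22 and 0.25. Of the further genes of selective autophagy, Trp53inp2 differed by 0.53 and 0.46, and the mitochondrial receptor Bnip3l by -0.44 and -0.32. The co-chaperone gene Bag3 differed by -0.16 and -0.31.

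**Figure D4:**
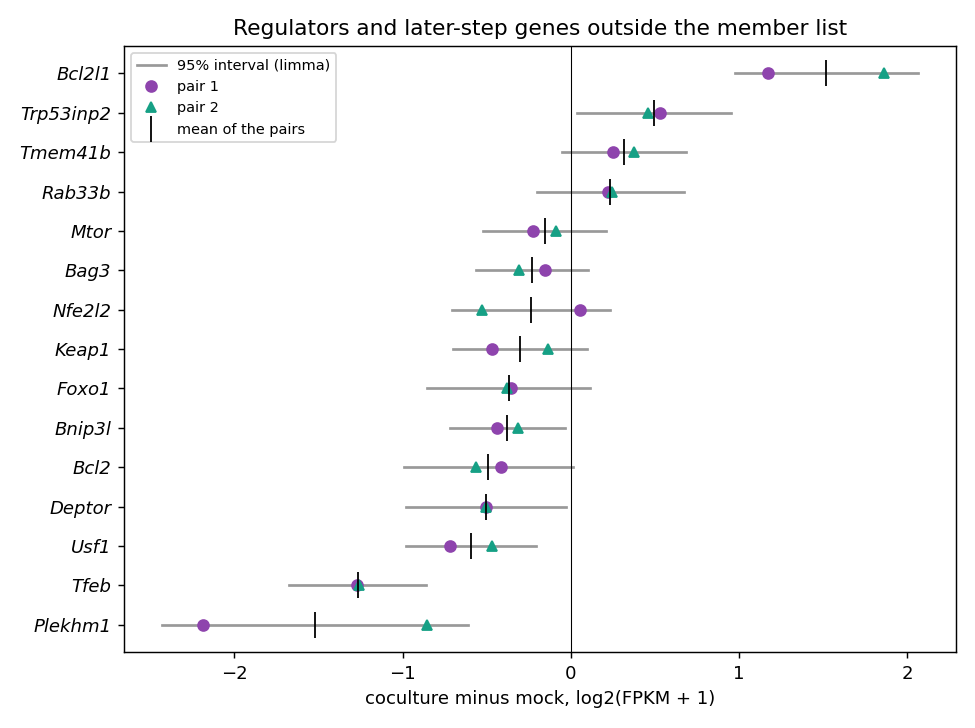
Difference in log2(FPKM + 1), coculture less mock (horizontal axis), for 15 genes around the autophagy machinery, with circles for pair 1, triangles for pair 2, a tick for their mean and a grey line for limma's 95% interval. Bcl2l1 lies highest at 1.52 and Plekhm1 lowest at -1.52, and the pairs of Tfeb coincide near -1.27.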

How the data were processed

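Messenger RNA libraries of RAW264.7 cells (Vazyme mRNA-seq kit, per the labels' protocols) were read from the FPKM values that the authors deposited, in 1 table for each replicate number. The submitters' processing notes name Trim Galore, Subread and featureCounts, and give the build as hg38, although both tables use mouse gene symbols. The sources used here do not give versions, annotation, gene lengths or strand setting. Rows with a blank or repeated name (at most 1.07% of a library's FPKM) were left out.

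FPKM were used as deposited. Because normalization may differ between the tables, coculture was set against mock inside each table. limma 3.58.1 under R 4.3.3 (trended eBayes prior, two-sided) was fitted to log2(FPKM + 1) over all 10202 genes at 1 FPKM or more in at least 2 libraries, with the pair as a block. Residual degrees of freedom were 1, with 3.43 from the prior, and ± is its moderated SE, which borrows spread across genes. The pseudocount of 1 shrinks differences of low genes: that of Ulk1 was -0.42 as reported and -0.51 with a pseudocount of 0.1. Same-numbered libraries deviated together, with a correlation across genes of 0.76. Offsets between the tables enter this correlation, so it cannot show that cultures were paired. The pairing itself comes from the replicate numbers and the shared table.

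Depth was estimated from low values of genes with 1 GENCODE M21 transcript, of which 77.1% to 81.6% per library lay within 0.1 read of a whole number. No count model was used on the FPKM. The autophagy genes and the other lists were chosen with earlier results of these data known. By rule, full values are given for members at 0.3 or more with 1 sign in both pairs, the member of each role with the highest mean FPKM, and Tfeb, Nfe2l2, Keap1 and Mtor. Outside that rule, FPKM are also given for Tax1bp1, Gabarapl2, Map1lc3b, Map1lc3a, Atg14, Wipi2 and Atg10, and in part for Atg13 and Wipi1. Up to 3 genes of each other list are named by the size of the smaller within-pair difference, and other members by their differences. Alternatives covered pseudocounts of 0.1 and 0.5, the filter, 3 scalings, the pair block, the variance trend and each library left out.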

Additional observations from a re-analysis of the deposited data

How the results depend on the processing

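No autophagy gene was called higher or lower under any of the 13 alternatives run, so the count of 0 in each direction stayed as reported. Settings that called 0 or 1 gene over all genes could hardly have called a member. The filter of at least 5 FPKM left out some members, such as Ulk1. Over all genes tested, the 13 called higher and 0 lower became 22 higher with a pseudocount of 0.1, 0 higher with no filter on low values, 25 higher and 1 lower with at least 5 FPKM or after rescaling to a common total, 85 and 18 after median centring, 43 and 3 after quantile normalization, and 1 higher without trended variance. Without the replicate block limma called 1 gene higher. Leaving out 1 library at a time, unblocked, gave 0 genes higher in every case. The median of the 38 autophagy genes was -0.08, but -0.0093 after quantile normalization, and -0.28 to 0.093 with 1 library left out. Median centring moved all differences by 0.10 in pair 1 and 0.03 in pair 2. Under it Tfeb and Bcl2l1 passed the test, and Vmp1 stood at an adjusted p of 0.0557.

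The sign turned in 16 of 334 comparisons of a named gene with its reported difference. After rescaling to a common total, Becn1 was at -0.050 and Gabarap at -0.0066. With 1 library left out, in fits that set the 2 tables against each other, Becn1 ran from -0.14 to 0.15, Gabarap from -0.67 to 0.76, Bnip3l from -1.13 to 0.38, Deptor from -1.16 to 0.16, Sqstm1 from -0.18 to 1.70, Trp53inp2 from -0.14 to 1.13, Atg3 from -0.26 to 0.051, Atg4b from -0.19 to 0.050 and Nfe2l2 from -0.63 to 0.16. Without a turn of sign, but by over 1.5 times with at least 1 library left out, Ulk1 ran from -0.60 to -0.24, Gabarapl1 from 0.25 to 0.55, Atg101 from -0.30 to -0.12, Usf1 from -0.87 to -0.31, Foxo1 from -0.62 to -0.12, Bcl2 from -0.78 to -0.21, Keap1 from -0.58 to -0.032, Mtor from -0.26 to -0.051 and Bag3 from -0.45 to -0.013. In these fits with 1 library left out, a gene's offset between the tables enters its difference. How much of each range it makes up was not calculated. Of the tested members, Wipi1, Atg10 and Map1lc3a rest on the fewest estimated reads, with the longest GENCODE M21 transcript taken as gene length.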
